A study of Mus musculus with 2 samples.

Results

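The stem cell transcription factor heptad is a set of 7 proteins, GATA2, TAL1, LYL1, LMO2, RUNX1, FLI1 and ERG. Its genes were followed here together with the partner genes Ldb1, Etv6 and Cbfb. Members were taken as all probe sets whose only gene in the platform's annotation is one of these 10 genes. The genes were picked by name, with earlier results of these data known. This gave 19 probe sets of 45037 in all, 15 for the heptad and 4 for the partners, and 0 probe sets with several genes named a member. Total RNA of mouse haematopoietic stem cells, the bone marrow cells from which all blood lineages arise, was hybridised to Affymetrix arrays. One sample came from Wip1 knock-out mice and the other from wild type mice, both aged 3 months, with 1 array each. Wip1 is the phosphatase encoded by Ppm1d, a known brake on p53. The labels do not say which knockout allele was used, how the stem cells were sorted, or the number and sex of the animals. With 1 array per genotype no difference below has a replicate check or a p-value.

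GATA2 is a zinc finger protein that binds GATA motifs. TAL1 and LYL1 are closely related basic helix-loop-helix proteins that pair with E proteins on E-boxes. LMO2 binds no DNA itself and bridges TAL1 or LYL1 to GATA2, and LDB1 joins LMO2 into larger complexes. RUNX1 binds DNA as a heterodimer with CBFB, and FLI1, ERG and ETV6 are ETS domain proteins, of which ETV6 is known as a repressor. In blood stem and progenitor cells the 7 factors are known to occupy shared enhancers, many of them at their own genes. Gata2, Runx1 and Etv6 are each known to be needed for stem cells to form or to persist in bone marrow.

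Several members have more than 1 transcription start, and a probe set may read only some of the resulting transcripts. RefSeq promoter windows of 300 bases (build GRCm38.p6, from 250 before to 50 after a start) were at hand for 8 of the 10 members, 15 windows in all, and none is given for Lmo2 or Fli1. Gata2 is shown because both of its probe sets were lower in the knockout, Runx1 because its 6 probe sets disagreed and it has a pair of starts, and Lyl1 because it was higher and has a single start. Capitals mark matches on either strand to the GATA factor motif (letters AGATAA), the E-box (letters CANNTG), the ETS motif (letters GGAAG) and the RUNX motif (letters TGTGGT), and matches of different motifs may overlap.
Gata2, upstream start, chr6:88193641-88193940, plus strand: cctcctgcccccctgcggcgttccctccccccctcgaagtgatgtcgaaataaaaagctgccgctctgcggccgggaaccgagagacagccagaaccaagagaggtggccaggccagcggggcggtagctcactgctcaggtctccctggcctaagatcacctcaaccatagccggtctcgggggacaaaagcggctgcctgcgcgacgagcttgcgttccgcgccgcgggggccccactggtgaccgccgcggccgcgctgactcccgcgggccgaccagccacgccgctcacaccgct
Gata2, downstream start, chr6:88198414-88198713, plus strand: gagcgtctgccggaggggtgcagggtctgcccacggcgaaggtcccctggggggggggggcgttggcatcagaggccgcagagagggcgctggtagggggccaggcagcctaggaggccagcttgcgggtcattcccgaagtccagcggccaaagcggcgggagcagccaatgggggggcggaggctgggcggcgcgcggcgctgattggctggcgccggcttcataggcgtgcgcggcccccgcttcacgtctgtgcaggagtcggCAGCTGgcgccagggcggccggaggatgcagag
Runx1, upstream start, chr16:92826025-92826324, minus strand: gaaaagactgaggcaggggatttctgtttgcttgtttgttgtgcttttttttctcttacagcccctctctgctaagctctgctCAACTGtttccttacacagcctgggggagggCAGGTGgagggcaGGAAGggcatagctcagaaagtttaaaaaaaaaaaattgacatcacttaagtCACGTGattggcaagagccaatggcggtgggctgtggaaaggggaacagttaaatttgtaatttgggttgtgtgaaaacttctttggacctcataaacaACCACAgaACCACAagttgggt
Runx1, downstream start, chr16:92697280-92697579, minus strand: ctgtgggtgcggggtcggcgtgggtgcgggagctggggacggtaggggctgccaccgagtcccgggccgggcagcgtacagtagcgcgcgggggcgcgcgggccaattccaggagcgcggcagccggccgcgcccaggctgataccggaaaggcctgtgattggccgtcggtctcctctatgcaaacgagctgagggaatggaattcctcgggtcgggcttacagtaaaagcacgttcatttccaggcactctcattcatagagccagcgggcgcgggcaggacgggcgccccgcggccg
Lyl1, chr8:84701207-84701506, plus strand: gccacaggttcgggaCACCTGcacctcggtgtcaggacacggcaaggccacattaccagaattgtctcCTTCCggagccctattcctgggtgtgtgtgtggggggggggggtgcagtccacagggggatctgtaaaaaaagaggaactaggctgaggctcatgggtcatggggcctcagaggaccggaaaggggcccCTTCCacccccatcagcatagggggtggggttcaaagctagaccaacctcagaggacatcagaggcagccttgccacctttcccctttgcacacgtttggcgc

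The upstream Runx1 window held 3 E-boxes, 1 ETS match and 2 RUNX matches, and its downstream window held 0 matches. The Gata2 windows held 0 matches upstream and 1 E-box downstream, and the Lyl1 window held 1 E-box and 2 ETS matches. Over the 15 member windows the E-box was in 6, the ETS motif in 9, the GATA motif in 3 and the RUNX motif in 1. Among 32851 promoter windows of the same length the shares were 72.3% for the E-box, 71.4% for the ETS motif, 11.2% for the GATA motif and 16.8% for the RUNX motif. A match describes letters and is no evidence of binding. The windows of the members were also richer in G and C, with a median of 60.0% against 52.7% over all windows.

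The targeted gene was read by 2 probe sets, with intensities of 160 in the knockout against 167 in the wild type and 59.0 against 55.6. Whether they read the deleted exons is not known here, so they do not check the genotype label. Of 10 stem cell markers 8 were analysed here and all 8 lay above the floor, the median of each array. Their summed intensity was 5408 in the knockout and 4349 in the wild type, with most of the gap in Cd34 (2025 against 1512) and Hlf (1270 against 788). Of the 8 markers 5 had positive and 3 negative differences, with a median log2 difference of 0.07. Fgd5, counted among the 5, read 177 on both arrays and is positive only through the centring of the arrays. A difference of at least 1.5-fold was seen in 3 of the 8 markers, Hlf upward and Slamf1 and Tek downward. Among all detected genes, read by their brightest probe set, 2.3% were at least 1.5-fold higher and 1.55% lower. Slamf1 passed only in its brightest set (-0.66), and the median of its 3 sets was -0.29. The samples also differed in transcripts that depend on sex. The brightest Xist probe set read 3778 against 6228, and the brighter set of the Y-linked Eif2s3y read 149 against 31.8. The other Eif2s3y set read 5.79 against 5.54, under the floor on both arrays.

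All 19 heptad and partner probe sets lay above the floor on both arrays (25.9 in the knockout, 25.2 in the wild type), so none of their differences is a bound. None was changed by 1.5-fold or more in either direction. Over 19906 detected probe sets with 1 gene, 4.52% were (3.06% higher and 1.46% lower), and 0.728% were changed by 2-fold or more, so 0 of 19 is near the background. At a smaller size of 0.32 on the log2 scale 1 member probe set was higher and 1 lower, where 11% of all detected probe sets were higher and 8.28% lower. The differences, given throughout as log2 knockout minus wild type after centring the arrays, ran from -0.33 in Gata2 to 0.44 in Runx1. Their median was 0.08, against 0.0033 over all detected probe sets, and the median size regardless of sign was 0.16 in both.

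In 13 of 19 member probe sets the knockout was the higher array and in 6 the lower, where 50.6% of all detected probe sets were higher. In place of a replicate error, the spread between probe sets of the same gene was used, an SD of 0.22 on the log2 scale over 5084 genes with at least 2 detected sets. It holds no variation between animals or arrays. By this measure 5 members (26.3%) stood past the SD, against 35.5% of all detected probe sets. They were the brighter Gata2 probe set (lower) and those of Lmo2, Lyl1 and 2 of Runx1 (higher).

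**Figure D1:**
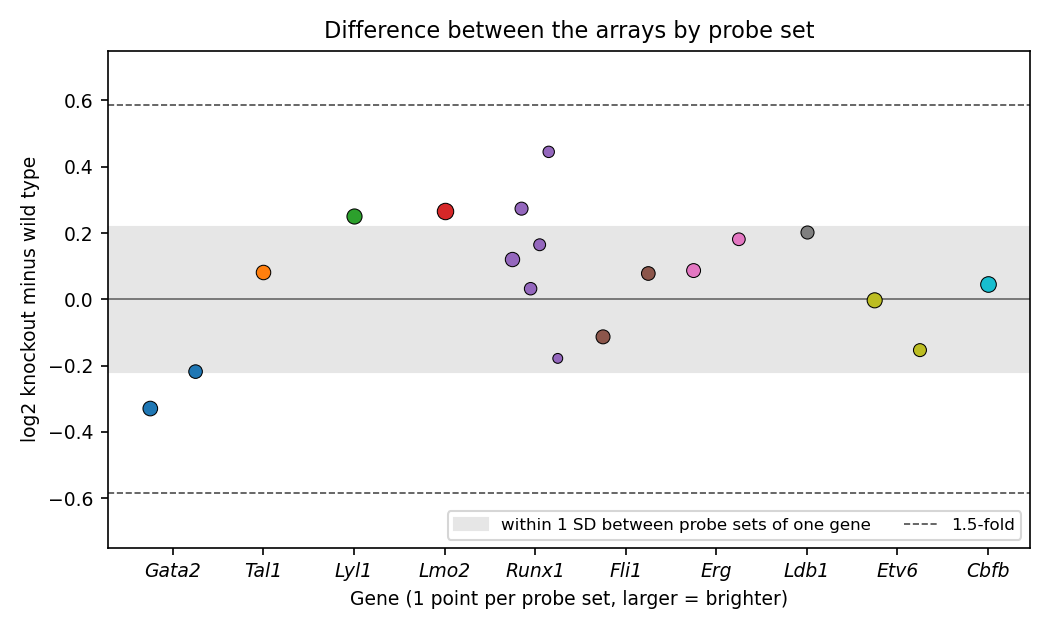
Log2 difference between the knockout and wild-type arrays (vertical axis) for each probe set of the 10 genes (horizontal axis), with larger points for brighter probe sets, a grey band for 1 SD between probe sets of the same gene (0.22) and dashed lines at 1.5-fold. No point passes 1.5-fold; both Gata2 points lie below 0, while 5 of 6 Runx1 points and the Lmo2 and Lyl1 points lie above it.

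Gata2 was the heptad gene with the lower signal in the knockout in every one of its probe sets. The brighter set, 1450333_a_at, read 748 in the knockout and 948 in the wild type, a log2 difference of -0.33 or 1.26-fold lower. The dimmer set, 1428816_a_at, read 351 against 413, a difference of -0.22. Both sets point the same way and by similar amounts (SD 0.08 between them). Differences at least as far from 0 as that of the brighter set were seen in 13.4% of the 2000 detected probe sets nearest to it in mean intensity, and in 32.9% for the dimmer set. The Gata2 difference was therefore of a size that many transcripts showed between these arrays.

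GATA2 is also made in mast cells, megakaryocyte precursors and early erythroid cells, and in a bulk sample fewer cells of a type and less RNA per cell cannot be told apart. All 8 megakaryocyte markers analysed here were lower in the knockout, with a summed intensity of 952 against 1420 and none at 0. Of the 5 detected mast cell markers 3 were higher, Fcer1a was lower (-0.42), and Gzmb read 18.8, under the floor, against 26.0, so its floored difference of 0.0038 has no direction. Of the 3 higher ones Cpa3 differed by only 0.06, and Hdc by 0.10 in its brightest set but by -0.24 in its other detected set. The mast cell sums were 393 and 378 over the 6 analysed here, none at 0. Of the 5 detected erythroid markers 2 were higher and 3 lower, with sums of 290 and 358 over the 7 analysed here, and the erythroid genes Hba-a1 and Alas2 lay under the floor on both arrays. The part of these cells in the Gata2 difference was not tested. The other GATA genes of blood cells were lower as well. Gata1, the erythroid and megakaryocyte factor, read 74.2 against 134 (-0.84), and Gata3, the T cell factor, read 58.1 against 81.3 (-0.47), each by a single detected probe set.

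The bHLH and LIM genes of the complex were higher or close to 0 in the knockout. Lmo2, the bridging LIM-only protein, was the brightest member on both arrays, read by 1454086_a_at at 4042 in the knockout and 3393 in the wild type (0.27, 1.20-fold). Its signal exceeded that of 99.3% of all probe sets on the knockout array and 99.1% on the wild-type array. Lyl1 read 1331 against 1129 (0.25, 1.19-fold). Tal1, its close relative, read 760 against 725, a difference of 0.08 that is well within the SD between probe sets. Ldb1, the adaptor that joins LMO2 into larger complexes, read 283 against 248 (0.20).

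Each of these 4 genes was read by a single probe set, so no second reading is at hand. Differences as large as that of Lmo2 were seen in 17.7% of the 1235 detected probe sets nearest in intensity, fewer than 2000 because Lmo2 lies near the top of the range. For Lyl1 the share was 21.8%, for Ldb1 38.8% and for Tal1 71.3%. The deposited Tal1 intensities differed by exactly 35, with the same decimals on both arrays. Such whole-number differences were found in 774 probe sets of the series (1.72%), and Tal1 was the only member among them.

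Runx1 was read by 6 probe sets whose intensities spanned 19.5-fold on the knockout array and 15.8-fold on the wild-type array. The brightest, 1422864_at, read 685 in the knockout and 636 in the wild type (0.12). Next came 1440878_at with 278 against 232 (0.27) and 1427650_a_at with 174 against 171 (0.03). The set 1422865_at read 126 against 113 (0.16). These 4 sets were all higher in the knockout, and only 1440878_at was past the SD between probe sets.

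The dimmest pair of Runx1 sets went opposite ways. In 1452531_at the signal was 104 against 77.3, a difference of 0.44 or 1.36-fold, the farthest from 0 among all 19 members. In 1452530_a_at it was 35.2 against 40.2 (-0.18), near the floor. The 6 differences had a median of 0.14 and an SD of 0.21, about that of an average gene. Among the detected probe sets nearest in intensity 12.7% differed at least as far as 1452531_at. The first and the fourth brightest sets, 1422864_at and 1422865_at, were designed on RefSeq mRNA records and differed by 0.12 and 0.16. The other 4, designed on other sequence records, ranged from -0.18 to 0.44. The sources used here do not say which exon, intron or alternative end each set reads, so a difference in transcript form cannot be told from a difference in probe behaviour. Cbfb, the subunit that stabilises RUNX1 on DNA, was the next brightest member after Lmo2. It read 1906 against 1861, a difference of 0.05.

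The ETS genes differed little between the arrays. Fli1 read 477 in the knockout against 521 in the wild type by 1433512_at (-0.11) and 415 against 397 by 1422024_at (0.08), so its probe sets disagreed in sign. Erg read 495 against 470 by 1440244_at (0.09) and 215 against 192 by 1425370_a_at (0.18), both higher. Etv6 read 1177 against 1191 by 1434880_at (-0.0031) and 233 against 261 by 1423401_at (-0.15). All 6 ETS differences were smaller than the SD between probe sets. The sign of the bright Etv6 set has no meaning at this size: it was positive after quantile normalization (0.04), after loess (0.04) and with a floor at the 75th percentile (0.02).

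**Figure D2:**
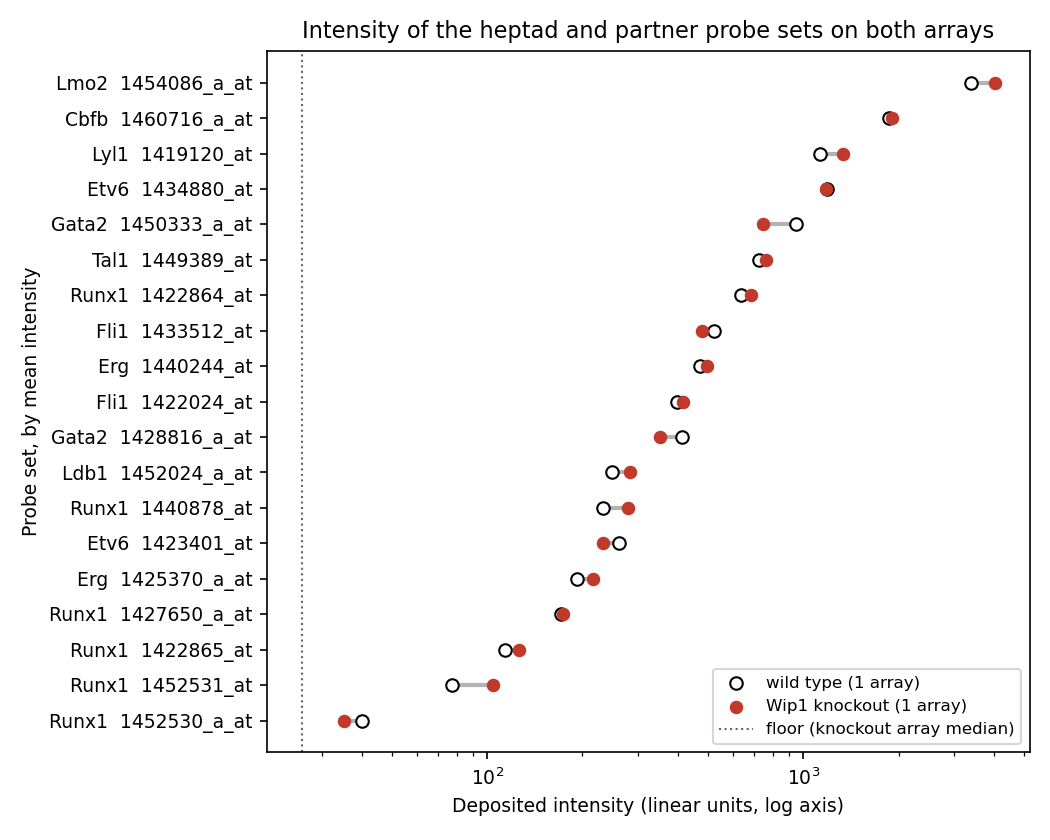
Deposited intensity on a log axis (horizontal) of the 19 probe sets, ordered by mean intensity (vertical), with open circles for the wild-type array, filled circles for the knockout array and a dotted line at the knockout array's floor of 25.9. Lmo2 lies at the top with 3393 and 4042, the dimmest Runx1 set at the bottom with 40.2 and 35.2, and the gap within each pair is small beside the range across probe sets.

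The order of the signals was largely shared by the arrays. Of the 19 probe sets 8 held the same place on both and none moved by more than 2 places. From the top the order by mean intensity was Lmo2, Cbfb, Lyl1, Etv6, Gata2, Tal1, Runx1, Fli1 and Erg, taking the brightest set of each gene, with Ldb1 last. Of 18 neighbouring pairs of probe sets 6 had overlapping ranges over the 2 arrays. These included Lyl1 with Etv6, Gata2 with Tal1 and the brightest sets of Fli1 and Erg. In the wild type the brighter Gata2 set (948) stood above Tal1 (725), and in the knockout it stood just below (748 against 760). An intensity depends on the probes of a set as well as on the transcript, so this is an order of signals and not of transcript amounts. On both arrays 17 of the 19 sets lay above the 75th percentile of all probe sets, the exceptions being 1452531_at and 1452530_a_at of Runx1.

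Of the 5 member genes with several probe sets, 3 (Gata2, Erg and Etv6) had all of them on the same side of 0, though the brighter Etv6 set differed by only -0.0031. The pooled SD within these 5 genes was 0.17. By the kind of probe set, the 11 of the plain _at class, designed to match a single transcript, had a median of 0.09. The 8 of the _a_at class, which read several transcripts of the same gene, had a median of 0.04. The 15 heptad sets had a median of 0.09 with 11 higher, and the 4 partner sets a median of 0.02 with 2 higher.

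**Figure D3:**
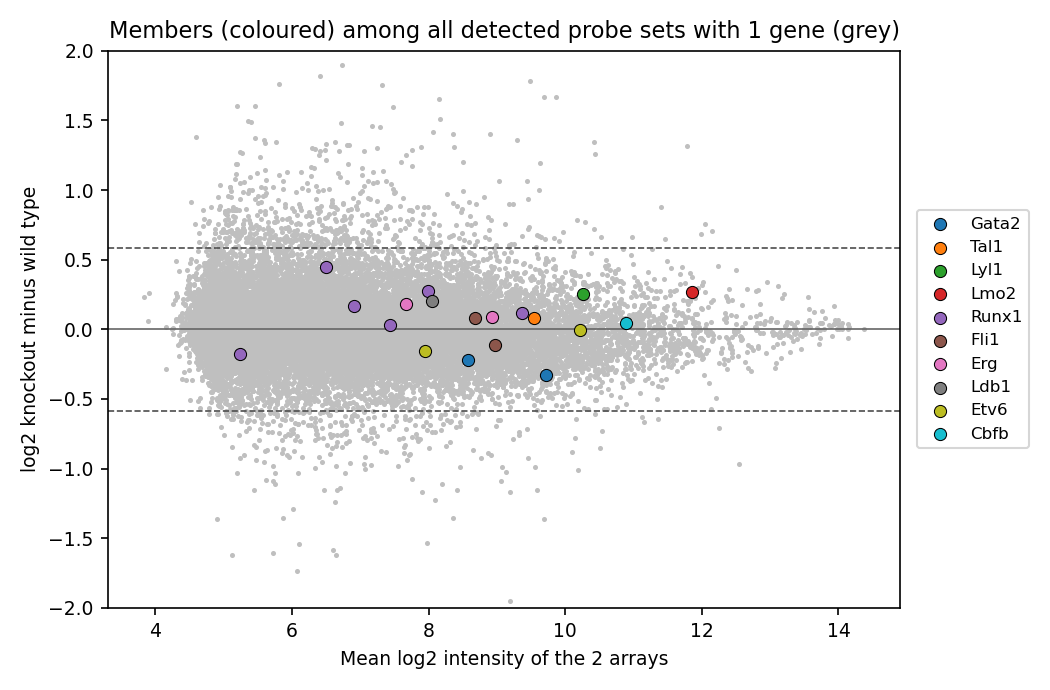
Log2 difference between knockout and wild type (vertical axis) against mean log2 intensity of the 2 arrays (horizontal axis) for 19906 detected probe sets with 1 gene (grey) and the 19 member probe sets (coloured by gene), with dashed lines at 1.5-fold. The members lie inside the grey cloud at every intensity; 9 grey probe sets fall outside the vertical range, which ends at 2 on either side of 0.

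Genes that act with the heptad were compiled by role from general knowledge, with earlier results of these data known. Each was read by its brightest probe set. At gene level 2.3% of 11442 detected genes were at least 1.5-fold higher in the knockout and 1.55% at least 1.5-fold lower. Of 7 dimer partners and Id inhibitors of the bHLH factors, all detected, 1 was past 1.5-fold higher and 0 lower, with a median of 0.14. The past one was Id1, an inhibitor that keeps E proteins off DNA, with 401 against 255 (0.67). Tcf4, an E protein, read 914 against 635 (0.54), and its 5 detected probe sets were all higher, from 0.28 to 0.54. Id3, another inhibitor, read 203 against 283 (-0.47). The E protein genes Tcf3 (0.14) and Tcf12 (0.01) were within the SD between probe sets in these brightest sets. Tcf12 read 805 on both arrays there, so its difference is only the centring. The 3 detected Tcf3 sets ran from -0.17 to 0.14 and the 4 of Tcf12 from 0.01 to 0.40.

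The cofactors of the LIM complex held 8 detected genes, 0 of them past 1.5-fold, with a median of 0.08. Cbfa2t3, the corepressor ETO2 that joins TAL1 complexes, differed by 0.34 in its brightest set but from -0.22 to 0.43 over its 4 sets. Ssbp2, which protects LDB1 from degradation, differed by 0.20, with 0.62 in another of its sets, and Ssbp4 by -0.25. Of the 11 detected paralogues 1 was past 1.5-fold higher, 1 lower and the median was -0.18. The higher one was Ets1, an ETS factor of lymphoid cells, with 164 against 102 (0.70), while its 4 sets ran from -0.12 to 0.91. The lower one was Gata1. Runx3, a paralogue of Runx1, read 302 against 344 (-0.18). Elf1 differed by -0.09 in its brightest set but by 0.75 in its other detected set.

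Among 16 detected stem cell factors that act beside the heptad, 1 was past 1.5-fold higher and 0 lower, with a median of 0.09. This was Hlf, a PAR bZIP factor, with 1270 against 788 (0.70, and 0.84 in its other set). Meis1, a homeobox cofactor, differed by -0.20 in its brightest set and by 1.82 in its other detected set, and with the median of the detected sets it too was past 1.5-fold higher, here and among the genes with heptad-bound elements. Hoxa9, a homeobox factor of early progenitors, read 1773 against 1303 (0.46, and 0.35 in its other set). Zfpm1, the GATA cofactor FOG1, read 269 against 367 (-0.43, but -0.09 in its other set). Of 20 detected genes with elements known to be bound by heptad factors, 1 was past 1.5-fold higher and 3 lower, with a median of -0.01. Csf1r, a cytokine receptor of the macrophage lineage, was the higher one with 770 against 294 (1.40, and 0.35 in the nearest to 0 of its 3 sets). Pf4 (-0.77), a platelet chemokine, and Zbtb16 (-0.66), the zinc finger factor PLZF, were among the lower ones, and the other was the angiopoietin receptor gene Tek (-0.59). Of 17 chromatin and degradation partners of RUNX1 and TAL1, 0 passed 1.5-fold and the median was -0.01. The members farthest from 0 were the arginine methyltransferase gene Prmt1 (-0.33), the histone methyltransferase gene Kmt2a (0.26) and the ubiquitin ligase gene Stub1 (-0.26). Hdac2 differed by -0.12 in its brightest set but from -0.22 to 0.70 over its 3 detected sets.

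**Figure D4:**
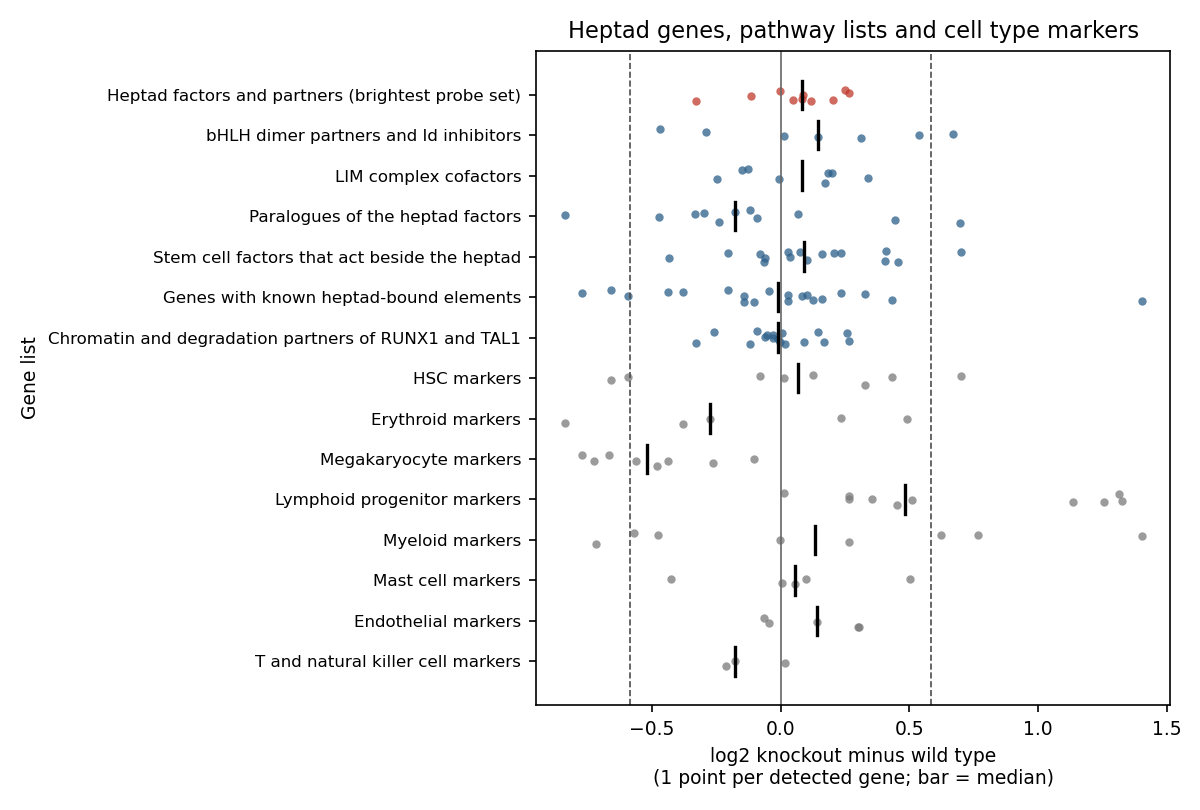
Log2 difference between knockout and wild type (horizontal axis) for each detected gene of the heptad and partners (red), the pathway lists (blue) and the cell type markers (grey), 1 gene list per line, with a black bar at each median and dashed lines at 1.5-fold. The 10 red points stay within 1.5-fold, while all 8 megakaryocyte markers lie below 0 and all 10 lymphoid progenitor markers above it.

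Several lineage markers differed by at least 1.5-fold between the arrays. Among all detected genes 2.3% were at least 1.5-fold higher in the knockout and 1.55% at least 1.5-fold lower. All 10 lymphoid progenitor markers had positive differences, 4 of them by at least 1.5-fold, with a summed intensity of 9035 in the knockout against 4067 in the wild type and none at 0. Most of the gap between these sums lay in Dntt (5492 against 2228) and Flt3 (2112 against 892). Ebf1 read 20.7 in the wild type, under the floor of that array. One of the 10, Pax5, read 37.2 on both arrays and is positive only through the centring. Of 8 myeloid markers 4 were higher and 4 lower, with a median of 0.13, and 3 were at least 1.5-fold higher (Csf1r, Irf8 and Itgam) and 1 lower (Ms4a3). The sums over the 8 myeloid markers were 7915 and 8923, and the lower knockout sum rests on Mpo (3665 against 5498). The 5 detected endothelial markers, a cell type that also makes Erg, Fli1, Gata2, Tal1 and Lmo2, had a median of 0.14 with sums of 524 and 488 over 7 genes, and the endothelial cadherin gene Cdh5 and Sox17 lay under the floor on both arrays. Of the T and natural killer cell markers 3 of 5 were detected, with sums of 122 and 133. The part of any of these cells in the differences of Lmo2, Lyl1, Runx1 and Gata2 was not tested.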

How the data were processed

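Total RNA of haematopoietic stem cells was measured on 2 arrays, 1 per genotype. The authors deposited linear intensities, 1 value per probe set and array. The submitters' processing notes name MAS5 and no other program. Of the probe sets 5.63% held the same value on both arrays and 774 others differed by a whole number (tolerance 1e-06), so the method behind the intensities is not settled.

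Genes were assigned to probe sets with the platform's annotation, and symbols were updated through the reference gene table. Intensities were converted to log2 and centred on the median difference of detected probe sets with 1 gene, which removed a shift of -0.01. A probe set was detected when it lay above the median of either array, and lower values were set to that floor. Genes in lists were read by their brightest probe set. A fold of 1.5 was the size counted. No test was possible, and the number of arrays limits the precision. The code was tested on simulated data.

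Every member probe set was named, and of each pathway list the counts and the 3 genes farthest from 0 (others named were chosen after their values were seen). Likeness to other genes was not computed, since 2 arrays hold a single difference. Members and lists were chosen with earlier results of these data known. Alternatives changed the centring or replaced it with quantile or loess normalization, and changed the floor, the offset, the probe set class or the fold size. Python 3.11.15 with pandas 2.3.3 and statsmodels 0.14.6 was used.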

Additional observations from a re-analysis of the deposited data

How the results depend on the processing

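The median of the member probe sets stayed positive under every setting tried, from 0.05 with the array median added as an offset to 0.12 after loess. All 131 values of single probe sets under the 7 alternative scalings and floors moved by under 0.22, the SD of sets of the same gene, and the farthest by 0.12. Only the bright Etv6 set changed sign. The floor at the 75th percentile kept 17 of the 19 sets and 13 were higher. The number of member probe sets higher in the knockout was 13 or 14 under these settings and 8 of 11 without the _s_at, _x_at and _a_at classes. The share of all detected probe sets that were higher also moved, from 45.3% after quantile normalization to 52.7% without those classes. All alternatives for the member count were chosen after seeing the data. The counts past the fold size were 0 in both directions at 1.5-fold and at 2-fold, and 1 higher and 1 lower at a log2 size of 0.32. Of 24 pathway list counts under other settings 20 stayed within 1.5 times. With the median over a gene's sets, the stem cell factors and the genes with heptad-bound elements each held 2 higher genes in place of 1, the added gene being Meis1 in both. Under the floor at that 75th percentile, paralogues held 0 lower genes and the bound genes 1. No paired analysis was possible because each genotype has 1 array, and for the same reason no array could be left out.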
